A study of Mus musculus with 3 samples.

Results

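The guanylate binding proteins described here are 7 genes, Gbp2, Gbp2b, Gbp3, Gbp4, Gbp5, Gbp6 and Gbp7, out of the 31053 features in the count matrices. They were taken by gene symbol, and each symbol was found once. The members were chosen by UMI counts of these libraries seen before: the choice named Gbp2b as missing from fibroblasts of the old control. That value, and the other values of Gbp2b in the old control, are therefore given as a description and are used as support for nothing.

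Guanylate binding proteins are large GTPases related to dynamin. Their genes are transcribed strongly when interferon-gamma, made mainly by T cells and natural killer cells, binds its receptor and sets off signalling through the kinases Jak1 and Jak2. The proteins gather on the vacuoles and surfaces of intracellular bacteria and parasites, help to break them open, and pass microbial products to inflammasomes. Gbp2, Gbp2b and Gbp5 end in a lipid-attachment signal that holds them on membranes, and Gbp5 is known for promoting assembly of the Nlrp3 inflammasome. Gbp2b was formerly called Gbp1, and inbred mouse strains are known to differ in whether interferon induces it. In skin these genes are active in endothelium, fibroblasts, macrophages and epidermis during inflammation.

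The study profiled dorsal skin of mice by droplet single-cell RNA sequencing, with 1 library per group. The young control was 2.5 months old, carried floxed alleles of both target genes (Yap1 fl/fl and Wwtr1 fl/fl) and no recombinase, and received tamoxifen. The young YAP/TAZ knockout was 2.5 months old, carried the same floxed alleles together with R26-CAG-CreER, and received tamoxifen. This recombinase is driven by a promoter active in nearly all cells, so the deletion was not directed at fibroblasts or any other cell type. The tamoxifen dose was 0.11 mg per g of body weight, on 2 days of each week over 4 weeks. The old control, aged 24 months, was wild-type and got no tamoxifen. Between the old and the young control, age, the floxed alleles and tamoxifen cannot be told apart. The labels name neither the strain of any group nor the number of animals behind a library.

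With 1 library per group no test was possible, and no difference below has a replicate check. Unique molecular identifiers (UMIs, 1 per captured RNA molecule) were summed over the cells of a class and given as CPM, the usual count scale in which all UMIs of a class and library are set to the same fixed total. Brackets hold 95% intervals that cover counting error only. After filtering, 10784 young control, 8655 knockout and 11108 old control cells remained, with a median of 4953, 2085 and 1784 UMIs per cell and 5.01%, 10.3% and 7.18% mitochondrial UMIs. Wwtr1 was at 126 CPM over all young control cells, 11.7 CPM in the knockout and 113 CPM in the old control. Yap1 was at 77.9, 40.5 and 62.8 CPM in the same order. In fibroblast-like cells Wwtr1 was at 126, 24.2 and 118 CPM, while Yap1 was at 59.3 CPM [55.5 to 63.3], 51.4 CPM [40.1 to 65.0] and 51.4 CPM, so that its knockout level overlapped with both controls. Counts near the 3′ end may lie outside the deleted exons, so the remaining Yap1 reads check little. Xist was read at 1087 CPM in young control and 1017 CPM in old control fibroblast-like cells and at 0 UMIs in the knockout, where Ddx3y of the Y chromosome was at 129 CPM. The knockout library thus came from male and both control libraries from female skin, and sex cannot be told apart from genotype.

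In the mouse genome (GRCm38) 5 of the members lie in 1 block of 144.0 kb on the plus strand of chromosome 3, in the order Gbp5, Gbp7, Gbp3, Gbp2b, Gbp2, and no other protein-coding gene lies wholly within it. Gbp2b (ENSMUSG00000040264) spans chr3:142594847-142619179. Gbp2 (ENSMUSG00000028270) spans chr3:142620602-142638008 and begins after a gap of 1422 bases. Gbp4 and Gbp6 lie on the minus strand of chromosome 5, at chr5:105115767-105139586 and chr5:105270702-105293698. The last 500 bases of the longest coding transcripts of Gbp2, Gbp2b, Gbp3 and Gbp7 shared no 50-base stretch with a transcript of another gene, so reads from these 3′ ends can be placed. In Gbp6, 77.8% of such stretches were shared with Gbp9, Gbp10 or Gm43302, and its counts are uncertain. The shares were 6.43% for Gbp4 and 5.99% for Gbp5.

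Upstream sequences were found in RefSeq (GRCm38.p6) for 5 members, those on chromosome 3, and are shown because interferon acts on these genes through elements there. Each was searched on both strands for the interferon-stimulated response element, spelled GAAA, any 2 letters and GAAA again, which Irf factors bind, and for the gamma-activated site, spelled TTCNNNGAA. These members have 6 promoters in the table. The first element was found within 250 bases before and 50 bases after the start in 5 of the 6, against 3.44% of 32851 promoters of the same length, and the second promoter of Gbp3 had none. The gamma-activated site was found in 2 of the 6, those of Gbp5 and Gbp7, against 8.30%. A match is a string of letters and not a measured binding site. Starts here are those of RefSeq and can differ from the ends of the annotated gene spans. The bases printed below for Gbp2 and Gbp3 run into those spans, and those for Gbp5 lie within its span. The 250 bases before the start are given for the neighbours Gbp2b and Gbp2, and the bases around the match for the other 3, with the response element in capitals. It stands on the minus strand in each, so the plus strand reads as its reverse complement.
Gbp2b, chr3:142594597-142594846, plus strand: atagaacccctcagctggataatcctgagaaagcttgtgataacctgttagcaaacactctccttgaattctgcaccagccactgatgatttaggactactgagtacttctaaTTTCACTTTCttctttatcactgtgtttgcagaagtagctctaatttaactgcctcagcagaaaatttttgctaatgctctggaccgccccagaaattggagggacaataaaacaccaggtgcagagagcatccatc
Gbp2, chr3:142620413-142620662, plus strand: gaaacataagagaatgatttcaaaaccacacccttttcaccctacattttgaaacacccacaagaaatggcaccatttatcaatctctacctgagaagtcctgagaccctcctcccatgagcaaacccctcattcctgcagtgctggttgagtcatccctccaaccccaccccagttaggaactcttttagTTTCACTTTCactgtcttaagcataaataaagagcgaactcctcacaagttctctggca
Gbp3, chr3:142559975-142560043, plus strand: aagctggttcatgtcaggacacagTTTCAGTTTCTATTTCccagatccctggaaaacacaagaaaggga
Gbp5, chr3:142496739-142496808, plus strand: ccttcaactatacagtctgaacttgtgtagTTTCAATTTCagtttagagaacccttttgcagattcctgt
Gbp7, chr3:142530253-142530322, plus strand: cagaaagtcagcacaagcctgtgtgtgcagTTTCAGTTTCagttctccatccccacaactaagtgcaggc
The element ended 127 bases before the RefSeq start in Gbp2b and 49 bases before it in Gbp2, with the same 10 letters in both. In Gbp3 a pair of overlapping matches ran together.

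The class called fibroblast-like held 2602 young control, 210 knockout and 391 old control cells. It was named from 10 fixed markers, among them the collagen genes Col1a1 and Col1a2, the proteoglycan genes Dcn and Lum, and the receptor gene Pdgfra, and all 10 were detected in each library. Their summed level was 88406 CPM in the young control, 41826 CPM in the knockout and 53605 CPM in the old control. The mix of clusters differed: the cluster led by Col1a2, Col1a1 and Mfap4 held 1579 of the young control cells, 75 of the knockout cells and 218 of the old control cells, and in the knockout the cluster led by Coch and Fmod was larger, with 81 cells. Macrophage markers summed to 113, 28.7 and 36.2 CPM in fibroblast-like cells of the young control, knockout and old control. In the knockout 3 of those 10 markers were at 0, and in the old control 5. T cell and innate lymphoid markers summed to 24.0, 11.0 and 42.2 CPM, and dendritic or Langerhans markers to 322, 41.1 and 293 CPM, with 0, 5 and 2 of 11 at 0. Dermal papilla or sheath markers, 10 of 10 detected, summed to 385 CPM in the young control, 985 CPM in the knockout and 628 CPM in the old control. The part of these other cells' RNA in the results was not tested.

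All 7 members were detected in young control fibroblast-like cells, and each had a lower level in both other libraries. Gbp2 was read at 241 CPM [234 to 249] in the young control, 51.4 CPM [40.1 to 65.0] in the knockout and 107 CPM [94.0 to 122] in the old control, from 3666, 70 and 234 UMIs. The 3 intervals do not overlap, and the knockout is the lowest. Gbp7, which in macrophages helps to assemble the oxidase that kills bacteria, was read at 93.0 CPM in the young control, 49.2 CPM in the knockout and 54.6 CPM in the old control. Its knockout and old control intervals overlap, at 38.1 to 62.5 and 45.2 to 65.3 CPM. Gbp2b was read at 80.3 CPM [75.9 to 85.0] in the young control and 19.8 CPM [13.1 to 28.9] in the knockout, from 1220 and 27 UMIs, and had 0 UMIs in the old control. A count of 0 among the 2180908 UMIs of that class allows up to 1.38 CPM, taking 3 counts as the limit, and the level was thus at least 58.4-fold lower than in the young control.

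The other 4 members were sparse in fibroblast-like cells. Gbp3 was at 28.8, 14.0 and 16.0 CPM in the young control, knockout and old control. Gbp5 was at 25.2, 6.61 and 21.1 CPM, with intervals of 22.7 to 27.8 and 15.4 to 28.1 CPM in the young and the old control, which overlap. Gbp4 was at 16.0, 1.47 and 6.88 CPM, from 243, 2 and 15 UMIs, and its knockout ratio moved widely with the processing. For Gbp6, at 6.91, 4.41 and 2.75 CPM, the knockout value rests on 6 UMIs and its interval, 1.62 to 9.60 CPM, holds the young control value.

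**Figure D1:**
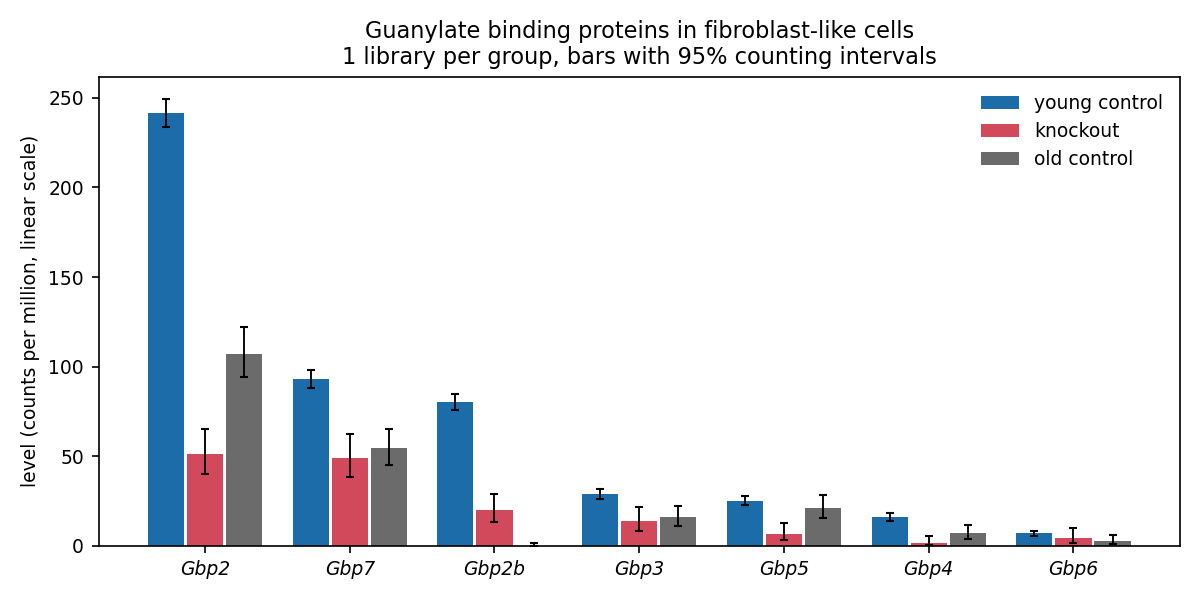
Level of each guanylate binding protein in fibroblast-like cells, in CPM on a linear axis, as 1 bar per library with its 95% counting interval. The young control bar is the highest for each of the 7 genes, and Gbp2b has no bar in the old control, where 0 UMIs were counted.

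Both comparisons use the same young control library, so their values are set side by side and were not correlated. A gene was called by size where its mean over the 3 libraries was at least 20 CPM, its ratio was at least 2 or at most 0.5, and the interval bound nearest 1 lay beyond 1.5-fold. Of the 7 members 3 reached that mean level in fibroblast-like cells, Gbp2, Gbp2b and Gbp7. Against the young control, 2 members, Gbp2 and Gbp2b, were called lower in the knockout, where 3.96% of 6212 genes were. Gbp2b reached the mean only through the young control, with 19.8 CPM in the knockout and 0 UMIs in the old control. Its knockout call is thus a description only, and without it 1 of 2 members over the minimum was called lower. Among old control cells Gbp2 was called lower, 1 of 2 members over the minimum once Gbp2b, whose value there the choice of genes rests on, is left out, and 1.92% of genes were. The knockout ratio was 0.213 [0.166 to 0.27] for Gbp2, 0.247 [0.162 to 0.361] for Gbp2b and 0.530 [0.408 to 0.677] for Gbp7. The old control ratio was 0.445 [0.388 to 0.507] for Gbp2 and 0.587 [0.483 to 0.708] for Gbp7. When each library was clustered alone, the old control ratio of Gbp2 was 0.522 and it was no longer called.

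Among the members under the minimum, the knockout ratio was 0.485 for Gbp3, 0.0919 [0.0111 to 0.335] for Gbp4, 0.263 [0.119 to 0.504] for Gbp5 and 0.638 [0.229 to 1.44] for Gbp6. The ratios of the old control were 0.558 for Gbp3, 0.430 for Gbp4, 0.839 [0.604 to 1.14] for Gbp5 and 0.398 for Gbp6. The members thus did not stand in one proportion to the young control: Gbp5 was much nearer to it in the old control than in the knockout. Over the 6 members other than Gbp2b the median log2 ratio was -1.43 for the knockout and -1.0 for the old control. Over the 6212 genes that passed the minimum the medians were 0.16 and 0.03. Only 2 of the 6 members passed it, so sparse members are set beside better counted genes. All 7 members together summed to 491 CPM in the young control, 147 CPM in the knockout and 209 CPM in the old control. The ratios of this sum were 0.299 [0.259 to 0.344] and 0.425 [0.385 to 0.467]. Its old control ratio, here and wherever it is given below, includes the Gbp2b values that the choice of genes rests on. It is a description only. Leaving out Gbp2b, the other 6 summed to 411, 127 and 209 CPM.

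Within fibroblast-like cells the sum was highest in the cluster led by Col1a2, Col1a1 and Mfap4 in each library. It was 594 CPM there in the young control, 247 CPM in the knockout and 254 CPM in the old control. In the cluster led by Coch and Fmod it was 257, 79.8 and 137 CPM, in the cluster led by Hmcn2 and Col14a1 403, 107 and 134 CPM, and in the cluster led by Sfrp5, Apod and Ebf2 216, 91.7 and 76.9 CPM. The young control was the highest in each of the 4 clusters. Gbp2b was read in each of the 4 clusters in both young libraries and in none of them in the old control. With clusters weighted as in young control cells, the knockout ratio of the sum was 0.379.

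Gbp2b was next followed outside fibroblasts, as a description. In the young control its level was highest in vascular endothelial-like cells, at 118 CPM [105 to 132], and this interval lies above that of fibroblast-like cells. Fibroblast-like, lymphatic endothelial-like (71.7 CPM), Schwann-like (65.9 CPM) and macrophage or monocyte-like cells (65.0 CPM) followed, and neighbours in this order overlap. Pericyte or smooth muscle-like cells came next at 23.6 CPM [17.4 to 31.3], clear of the macrophage interval of 47.4 to 86.9 CPM. Keratinocyte-like cells were at 17.6 CPM, mast-like cells at 16.8 CPM, T, NK or innate lymphoid-like cells at 16.1 CPM, sebocyte-like cells at 9.80 CPM and dermal papilla or sheath-like cells at 8.47 CPM, and from the pericytes on each neighbouring pair overlaps.

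In the knockout Gbp2b was again highest in vascular endothelial-like cells, at 44.1 CPM [38.5 to 50.4]. Lymphatic endothelial-like cells (26.9 CPM, from 13 UMIs) overlap with them and with fibroblast-like (19.8 CPM) and Schwann-like cells (16.6 CPM). In the old control it was at 0 UMIs in 9 of the 11 classes, the endothelial, Schwann and keratinocyte classes among them. Over all old control cells 5 UMIs of Gbp2b were counted, each in a different cell: 1 sebocyte-like cell, 1 macrophage or monocyte-like cell and 3 cells of unnamed clusters. None of these cells shared its barcode with a cell of the young libraries. Over all barcodes as deposited, before any filter, there were 7 UMIs in the old control, 962 in the knockout and 3363 in the young control. The low count in the old control was thus present before any filter or class name.

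The neighbouring gene Gbp2 remained readable in the old control. Over all cells Gbp2b had 2884 UMIs and Gbp2 7006 UMIs in the young control, 517 and 1307 in the knockout, and 5 and 1029 in the old control. The ratio of Gbp2b to Gbp2 was thus 0.412 [0.394 to 0.430], 0.396 [0.357 to 0.438] and 0.00486 [0.00157 to 0.0114]. The intervals of both young libraries overlap, and that of the old library lies far below them. The share of Gbp2b in the UMIs of the 7 members was 14.3% in the young control and 8.09% in the knockout, but 0.163% in the old control. In old control macrophage or monocyte-like cells, only 26 cells, Gbp2 was at 192 CPM [120 to 290] and in the young control at 104 CPM [81.3 to 131], while Gbp2b had 1 and 45 UMIs.

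Other genes were set beside Gbp2b as a description only, since it was chosen for its 0 UMIs in old control fibroblasts. Of 6034 genes at 20 CPM or more in young control fibroblast-like cells, 1 had 0 UMIs in those of the old control, and it was Gbp2b. Of 6750 genes at 20 CPM or more over all young control cells, 2 were under 1% of that level in the old control, Gbp2b and Jchain. Jchain, the joining chain of secreted antibodies, was at 30.9 CPM in the young control, 0.104 CPM in the knockout and 0.0986 CPM in the old control, and so was low in both other libraries, unlike Gbp2b. Below that level, the genes with 0 UMIs in old control fibroblast-like cells and the next highest levels in young control ones were Mrc1 (15.3 CPM), Igkc (14.7 CPM), Igha (13.1 CPM), C1qc (9.48 CPM), Myog (8.10 CPM), C1qb (8.03 CPM) and Cxcl13 (7.64 CPM). Mrc1, C1qb and C1qc mark macrophages, and Igkc and Igha encode antibody chains. Mrc1 was counted 496 times over all old control cells, so it was missing from the fibroblast-like class and not from the library.

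The sum of the 7 members was highest in endothelium. In the young control it was 1276 CPM in vascular endothelial-like cells, 775 CPM in lymphatic endothelial-like cells, 491 CPM in fibroblast-like cells, 425 CPM in Schwann-like cells and 404 CPM in macrophage or monocyte-like cells, and the last 2 overlap. T, NK or innate lymphoid-like cells were at 239 CPM and pericyte or smooth muscle-like cells at 203 CPM, and their intervals touch. Mast-like cells followed at 122 CPM. Keratinocyte-like (74.6 CPM), dermal papilla or sheath-like (68.3 CPM) and sebocyte-like cells (47.4 CPM) were lowest, and the first 2 of these overlap. The make-up differed by class: Gbp2 gave 49.1% of the members' UMIs in fibroblast-like cells, while Gbp4 gave 36.0% in the T, NK or innate lymphoid class and 3.26% in fibroblast-like cells.

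**Figure D2:**
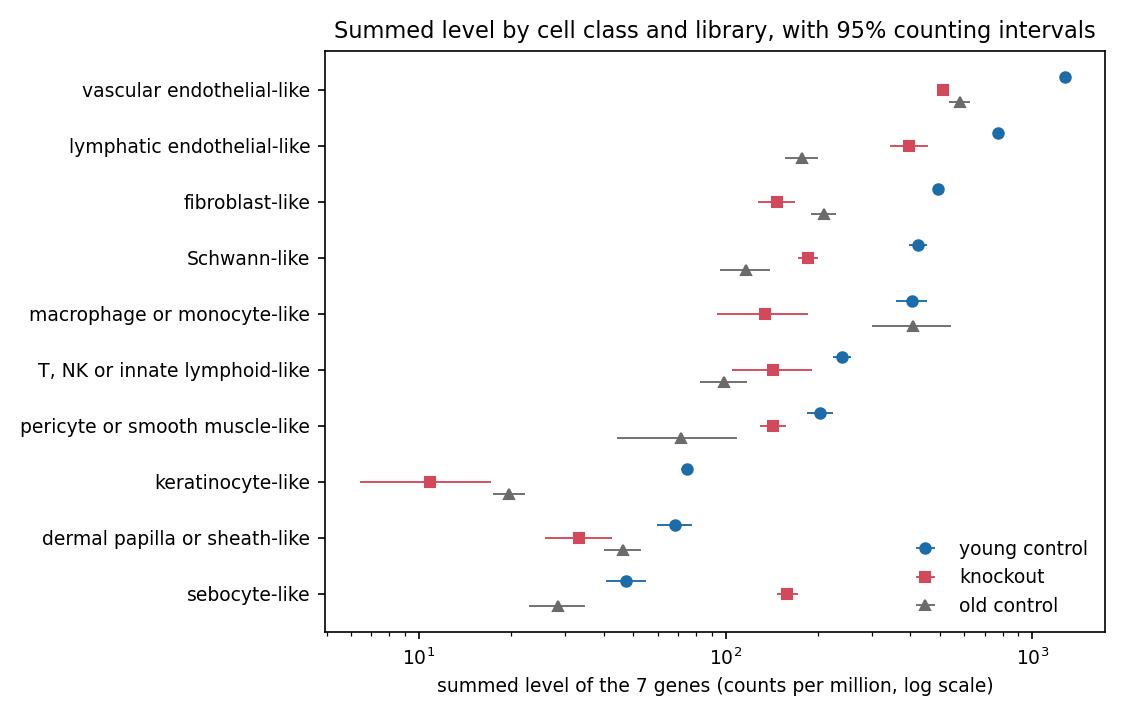
Summed level of the 7 genes by cell class and library, in CPM on a log axis, as points with 95% counting intervals. Young control points are the highest in 8 of the 10 classes shown, sebocyte-like cells are highest in the knockout, and in macrophage or monocyte-like cells the young and old control overlap.

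Outside fibroblasts, 5 classes had at least 100 cells in each library. In vascular endothelial-like cells the sum was 1276 CPM in the young control, 511 CPM in the knockout and 579 CPM in the old control, a ratio of 0.401 [0.38 to 0.422] and of 0.454 [0.417 to 0.493]. Of the 6 members over the minimum there, 5 (Gbp2, Gbp2b, Gbp3, Gbp4 and Gbp7) were called lower in the knockout, where 9.47% of genes were lower and 5.99% higher, and, leaving out Gbp2b, 2 of 5 (Gbp4 and Gbp7) in the old control, where 5.16% were lower and 4.43% higher. Gbp4 was at 289 CPM [269 to 310] in the young control, 64.0 CPM [57.1 to 71.5] in the knockout and 126 CPM [106 to 149] in the old control. Gbp5 was at 119, 102 and 92.9 CPM and was not called. The classes were not alike: 1755 of the 1854 knockout cells lay in a cluster led by Selp, Ifit1 and Sele that held 3 young control cells and 0 old control cells. Within the cluster that all libraries shared, led by Fabp4, Cd36 and Scarb1, the sum was 1278 CPM in the young control, 758 CPM in 99 knockout cells and 579 CPM in the old control. Pericyte or smooth muscle markers, 10 of 10 detected in each library, summed to 1033 CPM in the young control class, 6867 CPM in the knockout and 1782 CPM in the old control, and their part in the result was not tested. Free RNA was estimated from keratinocyte markers at 22.2% of young control UMIs of this class and 50% of knockout UMIs, the upper limit set for the estimate. For the old control it was estimated from erythrocyte markers, at 2.35%, so the estimates are unlike measures. Keratinocyte markers summed to 2365 CPM in the young control class, 3649 CPM in the knockout and 4863 CPM in the old control. With free RNA subtracted, the ratios of the sum were 0.510 and 0.386, and these carry that difference. With doublets kept, the knockout ratio of the sum was 0.642, and with each library clustered alone it was 0.605.

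In Schwann-like cells, the glia of skin nerves, the sum was 425 CPM in the young control, 186 CPM in the knockout and 116 CPM in the old control. Gbp2, Gbp2b and Gbp3 were called lower in the knockout, 3 of the 5 members over the minimum, where 6.76% of genes were lower and 4.04% higher. Here too Gbp2b reached the minimum only through the young control, at 65.9 CPM against 16.6 CPM in the knockout. Without it 2 of 4 were called lower there. Leaving out Gbp2b, 3 of 4 (Gbp2, Gbp3 and Gbp7) were called lower in the old control, where 4.51% were lower and 2.96% higher. Gbp2 was at 133, 37.8 and 38.7 CPM in the young control, knockout and old control. Gbp5 was at 32.9 and 28.8 CPM in the young control and knockout, a ratio of 0.876 [0.637 to 1.21]. The class lay in different clusters: 934 of the 1358 knockout cells were in one led by Ptx3 and Thbs4, which held 5 young control and 22 old control cells. Schwann markers, 8 of 8 detected, summed to 46030 CPM in the young control, 16675 CPM in the knockout and 17475 CPM in the old control. Free RNA was estimated at 3.65%, 50% (the upper limit set for the estimate) and 14.0% of the UMIs of this class. Vascular endothelial markers, 10 of 10 detected, summed to 129, 724 and 191 CPM in it, and their part in the result was not tested. In the cluster led by Scn7a and Kcna2 the sum was lower in the knockout than in the young control, at 258 against 774 CPM.

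Keratinocyte-like cells had low levels, and none of the members reached the minimum, so 0 of the 7 were called. Among the genes over it, 5.18% were called lower and 2.21% higher in the knockout, and 0.791% lower and 0.773% higher in the old control. The sum was 74.6 CPM in the young control, 10.9 CPM in the knockout and 19.7 CPM in the old control. The knockout value rests on 18 UMIs in 117 cells, and its ratio of 0.146 [0.0862 to 0.231] was 0.804 when each library was clustered alone. Most of the young control signal came from the cluster led by Serpinb2 and carrying Krt5, a keratin of basal cells, where the sum was 144 CPM in the young control and 14.6 CPM in the old control.

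In dermal papilla or sheath-like cells the sum was 68.3, 33.4 and 46.2 CPM in the young control, knockout and old control. Only Gbp7 reached the minimum, at 36.1, 17.7 and 23.1 CPM, and it was not called. In the knockout 5.49% of genes were called lower and 5.04% higher, and in the old control 2.23% and 2.92%. The knockout ratio of the sum, 0.488, turned to 1.30 with the stricter cell filter and to 1.05 with each library clustered alone, so no direction is given for this class.

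Sebocyte-like cells went the other way in the knockout. The sum was 47.4 CPM in the young control, 159 CPM in the knockout and 28.4 CPM in the old control. Gbp2 and Gbp7 were the members over the minimum, and both were called higher in the knockout, where 12.1% of genes were called higher and 6.21% lower, with ratios of 2.06 and 4.90. Both reached the minimum only through their knockout levels, so these calls are a description only. Gbp2 was at 18.0, 37.1 and 11.6 CPM in the young control, knockout and old control, and Gbp7 at 8.98, 44.0 and 8.54 CPM. In the old control neither was called, where 1.13% of genes were lower and 6.26% higher. Gbp2b was not higher in the knockout, at 7.67 CPM against 9.80 CPM. The knockout cells lay in clusters led by Elovl4 and Elovl6, and 185 of the 189 young control cells in another, led by Akr1c18 and Cyp2g1. Reweighted to the clusters as they are mixed in young control cells, the ratio turned to 0.332. Vascular endothelial markers, 10 of 10 detected in each library, summed to 1241 CPM in knockout sebocyte-like cells, 28.6 CPM in those of the young control and 108 CPM in those of the old control, and their part in the result was not tested.

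**Figure D3:**
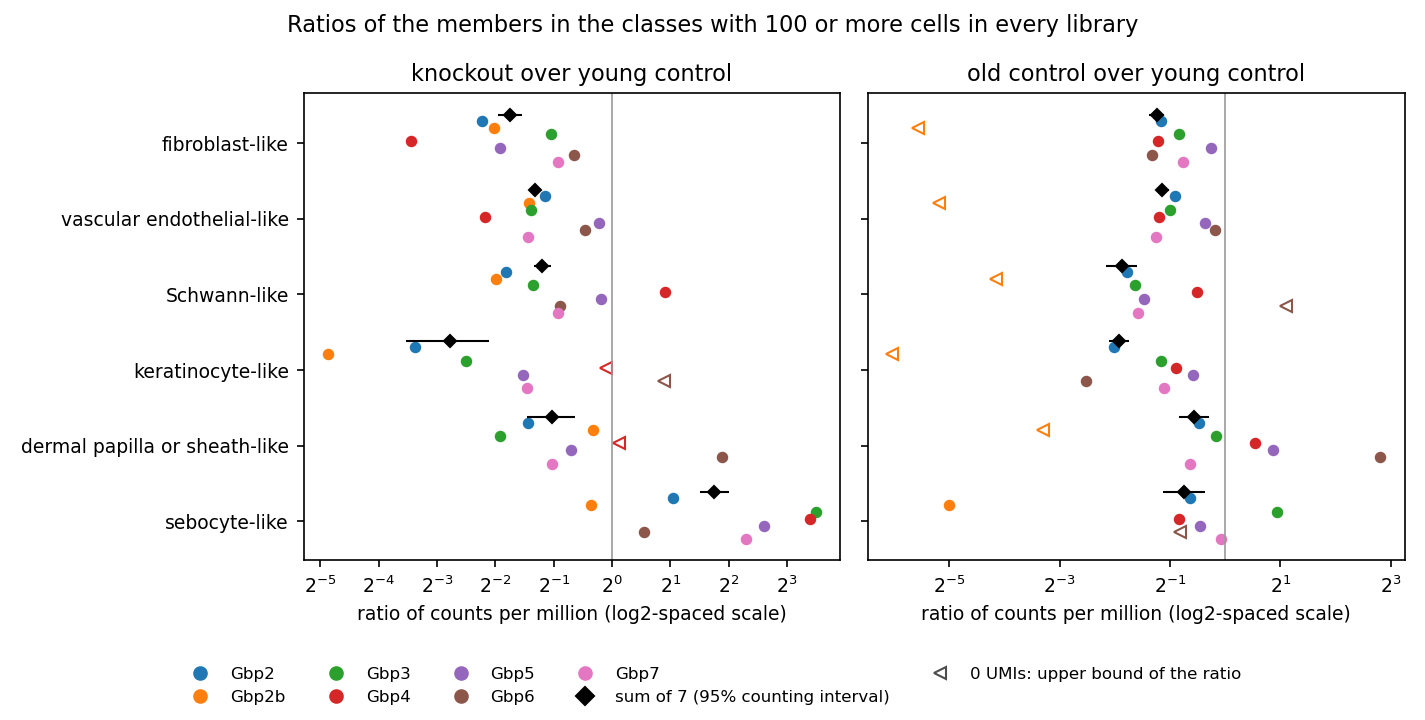
Ratio of each member (circles) and of the sum of the 7 (diamonds, 95% counting interval) to the young control in 6 cell classes, on log2-spaced axes, for the knockout (left) and the old control (right). Open triangles mark the upper bound where 0 UMIs were counted, as for Gbp2b in 5 of the 6 old control classes, and the sum lies right of 1 only for knockout sebocyte-like cells.

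Over all cells regardless of class the sum was 249 CPM in the young control, 221 CPM in the knockout and 75.6 CPM in the old control. The knockout ratio, 0.886, was thus nearer to 1 than in the fibroblast-like class. The make-up of the libraries differed, since vascular endothelial-like cells, the class with the highest sum, were 5.90% of young control cells, 21.4% of knockout cells and 3.19% of old control cells. Gbp5 over all cells was higher in the knockout, at 41.5 CPM against 14.2 CPM in the young control and 8.16 CPM in the old control.

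The other guanylate binding proteins in the matrices, Gbp8, Gbp9 and Gbp10, had low counts in fibroblast-like cells. For Gbp10, 100% of the 50-base stretches at its 3′ end were shared with Gbp6 or Gm43302, so its low counts do not show scarcity. Gbp9 was at 7.57, 5.14 and 5.50 CPM in the young control, knockout and old control, Gbp8 at 2.17, 0 and 2.29 CPM, and Gbp10 at 0.790, 0 and 0 CPM. In vascular endothelial-like cells Gbp9 was at 76.8, 35.0 and 42.9 CPM and was called lower in the knockout, with a ratio of 0.456 [0.370 to 0.561]. Gbp8 had 15, 9 and 5 UMIs there and Gbp10 had 4, 2 and 0.

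Immunity-related GTPases, the other family of interferon-induced GTPases that attack vacuoles, were lower beside the guanylate binding proteins in fibroblast-like cells. Of 11 in the matrices 5 passed the minimum. All 5 were called lower in knockout cells, where 3.96% of genes were, and 3 in old control cells, where 1.92% were. The median log2 ratios of the 5 were -1.48 and -1.61. Iigp1, an effector that coats parasite vacuoles, was at 226 CPM in the young control, 39.7 CPM in the knockout and 53.2 CPM in the old control. Its ratios were 0.176 [0.132 to 0.230] and 0.236 [0.194 to 0.284]. The regulators Irgm1, Irgm2 and Igtp had knockout ratios of 0.397, 0.467 and 0.351, and Ifi47 had 0.327. In the old control the ratio was 0.299 for Irgm2 and 0.324 for Igtp, while Irgm1 (0.627) and Ifi47 (0.789) were not called. With cells thinned to 1500 UMIs, 1 of them was called lower in the knockout.

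Of the receptor and signalling genes of interferon-gamma that passed the minimum in fibroblast-like cells, the 9 described here were called in neither comparison. Irf1, a transcription factor that interferon-gamma induces, was at 240, 441 and 358 CPM and so was above the young control in both. The receptor chains Ifngr1 and Ifngr2 had knockout ratios of 0.793 and 1.02 and old control ratios of 1.47 and 0.688. The kinases Jak1 and Jak2 had knockout ratios of 1.23 and 1.08 and old control ratios of 1.0 and 0.934. The inhibitors Socs1, Socs3, Pias1 and Ptpn2 had knockout ratios of 0.791, 1.17, 0.731 and 1.27. In the old control they were at 1.43, 1.10, 0.675 and 0.689.

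Among chemokines and enzymes that interferon-gamma induces, 9 passed the minimum. Of these 4 were called lower in knockout cells, where 3.96% of genes were, and 3 in old control cells, where 1.92% were. Cxcl9, a T cell attractant, had 920 UMIs (60.6 CPM) in young control fibroblast-like cells, 4 UMIs (2.94 CPM) in the knockout and 3 UMIs (1.38 CPM) in the old control. Cxcl10, which attracts the same cells, was at 77.4, 36.0 and 27.5 CPM, and the peptide transporter gene Tap1 at 71.7, 30.9 and 31.2 CPM. Serpina3g was called lower in the knockout, at 5.14 against 16.4 CPM, and was the 1 gene called higher in the old control, at 41.3 CPM, where 1.69% of genes were called higher. Cxcl9 passed the minimum only through the young control, and Serpina3g only through the old control. The genes of this list thus did not all share the direction of Gbp2.

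Genes induced by type I interferon had a median log2 ratio of 0.20 in knockout fibroblast-like cells and -0.29 in those of the old control. Of the 10 over the minimum, 1, Isg15, was called higher in the knockout, where 4.88% of genes were, at 59.5 CPM against 15 CPM in the young control. In the old control Isg15 was called higher at 32.1 CPM and Ifi27l2a called lower at 36.2 CPM against 128 CPM. Of all genes there, 1.69% were called higher and 1.92% lower. With doublets kept 3 genes were called higher in the knockout, and with cells thinned to 1500 UMIs the old control had 0. In vascular endothelial-like cells of the knockout 4 of 16 were called higher and 1 lower, with a median log2 ratio of -0.01. Of all genes there, 5.99% were called higher and 9.47% lower. Isg15 was at 614 CPM there against 90.5 CPM in the young control, and Ifit1 at 737 against 120 CPM. Among old control cells of that class 0 of the 16 were called higher and 7 lower, with a median of -0.94. Of all genes, 4.43% were called higher and 5.16% lower in those cells. Of 11 chemokine and enzyme genes in that class, 1, Cxcl10, was called higher in the knockout, at 799 against 106 CPM, and 6 were called lower, with a median of -1.18. Inflammasome and cell-death genes had 5 over the minimum in fibroblast-like cells and 0 called in either comparison. Of the interferon ligand and type I receptor genes, 2 were over the minimum and 0 were called.

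**Figure D4:**
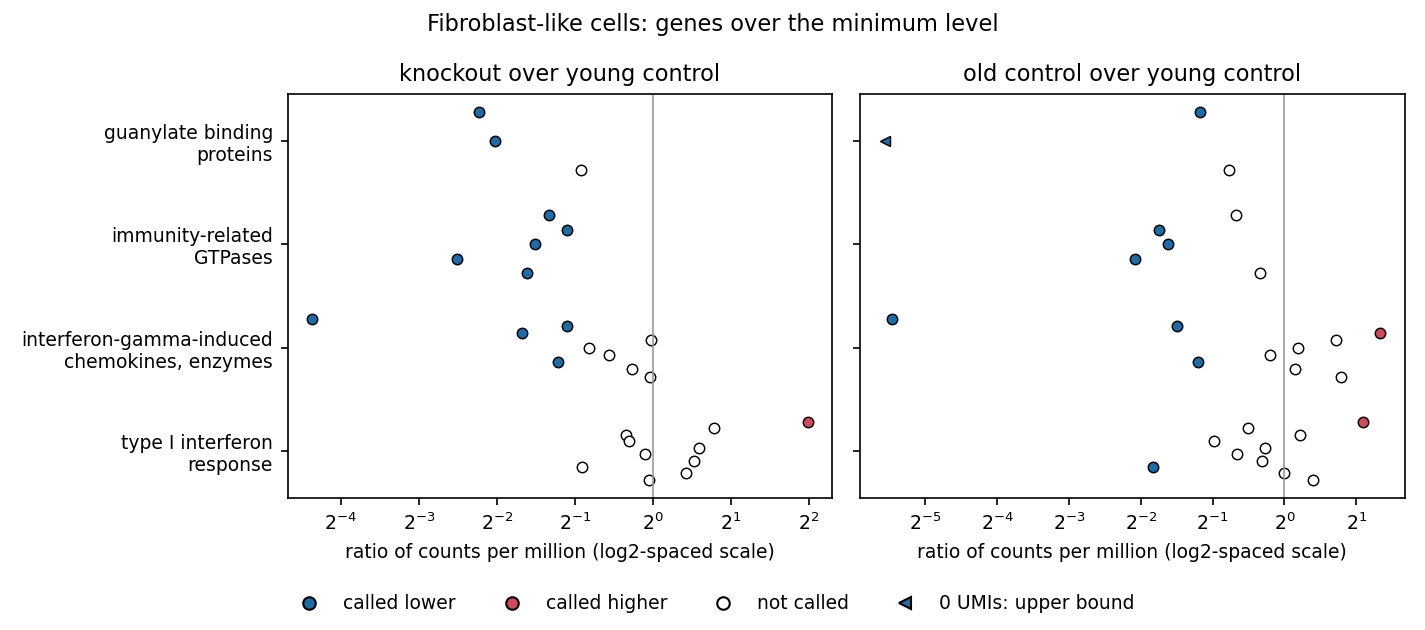
Ratios to the young control in fibroblast-like cells for genes over the minimum level of 20 CPM, by gene list, on log2-spaced axes, for the knockout (left) and the old control (right). Filled points were called by size: of the immunity-related GTPases 5 were called lower on the left and 3 on the right, and type I interferon response genes lie on both sides of 1.

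In the young control Ifng itself, the ligand, was read mainly in the T, NK or innate lymphoid class, with 455 of 497 UMIs. In that class the levels of the 3 libraries were as follows. It was at 124 CPM [113 to 136] in the young control, 186 CPM [142 to 240] in the knockout and 220 CPM [196 to 247] in the old control, so its level per UMI in these cells was lowest in the young control. Cells of this class were 11.0% of young control cells, 0.843% of knockout cells and 2.70% of old control cells. An unnamed cluster was led by the erythrocyte markers Hbb-bt, Hba-a2, Hba-a1, Hbb-bs and Alas2. Trdc, Ccl5 and Cd3g came later among its leading genes. It held 52 young control, 31 knockout and 3001 old control cells. How many of them are lymphoid is not known, so the share of lymphoid cells in the old control is uncertain. Over all cells Ifng was at 6.13, 2.56 and 12.7 CPM in the young control, knockout and old control. How far the number of T, NK or innate lymphoid-like cells bears on the members' levels was not tested.

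Across 30 sums of a class in a library, each of at least 30 cells, over 11 classes, the genes whose pattern was most like that of the summed members were Irgm2 (Pearson r = 0.95), Igtp (0.89), Psmb10 (0.87), Znfx1 (0.86), Parp14 (0.85), Irgm1 (0.85), Rnf213 (0.84) and Tmem88 (0.84), out of 7004 genes at 20 CPM or more. These are descriptions on log2(CPM + 5) values: the points share libraries and depth, and no p is given. Among the members themselves, Gbp7 and Gbp3 were closest, at 0.95, and Gbp4 and Gbp2b least close, at 0.38, where the old control values of Gbp2b are those it was chosen for.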

How the data were processed

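Dorsal skin of 3 groups of mice was measured as 1 droplet library each. The deposited values are raw UMI counts per gene and cell barcode, per the file headers; Cell Ranger 3.1.0, Seurat 3.1.5 and the build mm10 are named in the submitters' processing notes, without their roles. There were 15290 barcodes and 95274423 UMIs in the young control, 25348 and 57767761 in the knockout, and 22108 and 52579262 in the old control.

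A barcode was kept as a cell with 500 or more genes, 1000 or more UMIs and a mitochondrial share of 15% or less. Scrublet's automatic threshold marked 3.11%, 0% and 0.00828% of them as doublets, so the 8% with the highest doublet scores were removed from each library, a choice made after that threshold was seen. Cells were clustered together with scanpy 1.11.5 and leidenalg 0.10.2 (2000 variable genes, 30 principal components, 20 neighbours, resolution 1), and 25 of 36 clusters were named from marker lists into 11 classes, with naming thresholds set after the cluster tables were seen. Unnamed clusters held 11.8%, 30.5% and 44.4% of cells. Libraries shared 127 to 198 barcodes, at most 0.896% of the smaller library.

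Summed counts were turned into CPM with exact Poisson intervals, and ratios got exact binomial intervals (scipy 1.17.1). These cover counting error only, and 3 counts were taken as the limit behind a count of 0. With 1 library per group no test, p-value or replicate check was possible. The members and gene lists were chosen with earlier results of these data known. Named genes were all members, the other guanylate binding proteins, immunity-related GTPases and interferon-gamma signalling genes over 20 CPM, up to 4 called genes per comparison from each remaining list, and the 8 genes most like the members and most like Gbp2b. Alternatives covered doublets, cell filters, clustering, thinning, free RNA, cluster mix and scaling. Results on some items are not reported here.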

Additional observations from a re-analysis of the deposited data

How the results depend on the processing

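No paired analysis was possible because each group had 1 library, and for the same reason no library could be left out. In fibroblast-like cells the knockout ratio of the summed members, 0.299, was 0.355 with each library clustered alone, 0.232 with cells thinned to 1500 UMIs, 0.379 with the young control's cluster mix and 0.886 over all cells with no class. The old control ratio, 0.425, was 0.477 clustered alone and 0.303 with no class. Members called lower numbered 4 in the knockout without a minimum CPM and 1 in the old control clustered alone, in place of 2. Immunity-related GTPases called lower in the knockout numbered 1 after thinning, in place of 5. Type I interferon genes called higher numbered 3 in the knockout with doublets kept and 0 in the old control after thinning, in place of 1.

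In keratinocyte-like cells the knockout ratio, 0.146, was 0.244 with doublets kept, 0.256 with the stricter filter, 0.804 clustered alone, 0.346 thinned and 0.0761 with the cluster mix. The old control ratio, 0.264, was 0.374, 0.538, 0.337 and 0.385 under the first 4 of these. In sebocyte-like cells the knockout ratio, 3.36, was 1.54 clustered alone, 4.40 with free RNA subtracted and 0.332 with the cluster mix, which turned its direction. In vascular endothelial-like cells the knockout ratio, 0.401, was 0.642 with doublets kept, 0.423 with the stricter filter, 0.605 clustered alone, 0.356 thinned, 0.510 with free RNA subtracted, 0.444 with trimmed mean of M-values scaling, 0.438 with median-of-ratios scaling and 0.594 with the cluster mix. The old control ratio, 0.454, was 0.394 thinned and 0.386 with free RNA subtracted, which was estimated from other markers in the old than in the young control.

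In dermal papilla or sheath-like cells the knockout ratio, 0.488, turned to 1.30 with the stricter filter and 1.05 clustered alone, and was 0.307 thinned. That of the old control, 0.676, was 0.344 thinned. In Schwann-like cells the knockout ratio, 0.438, was 0.268 with the stricter filter, 0.347 with free RNA subtracted and 0.351 with the cluster mix. The old control ratio, 0.274, was 0.347 with the stricter filter and 0.212 clustered alone. The cause of these shifts was not tested.

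Of 63 values of single members in fibroblast-like cells per comparison, 59 moved by less than their counting interval, 4 moved further and 0 changed direction. Over these settings the knockout ratio ran from 0.0454 to 0.609 for Gbp4, 0.213 to 0.664 for Gbp3, 0.138 to 0.450 for Gbp5, 0.0871 to 0.328 for Gbp2b and 0.164 to 0.238 for Gbp2. For the old control it ran from 0.242 to 0.624 for Gbp3 and 0.376 to 0.932 for Gbp6. Leaving out the cluster led by Sfrp5, an alternative chosen after seeing the data, gave 0.319 and 0.444 for the sum. Few knockout cells limit Gbp4 and Gbp6 most, with 2 and 6 UMIs.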
